A study of Rattus norvegicus with 14 samples.

Results

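The 61 transcript clusters described here lie in 2 stretches of consecutive identifiers on a rat gene array, and 31 of them were about 4-fold lower in INS832/13 cells given an anti-miR against miR-338-3p than in cells given a scrambled anti-miR. They are 61 of the 29214 clusters of the table. The members were chosen by identifier, from 10707641 to 10707647 (the short run, 4 clusters), from 10722365 to 10722419 (the lowered run, 28 clusters) and from 10722421 to 10722477 (the adjoining run, 29 clusters). These bounds were selected on the difference between the same 6 arrays, so the differences below are a description and carry no test.

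The groups are 3 arrays of INS832/13 cells under miR-338-3p blockade, treated with an antimiR338, and 3 control arrays of the same line treated with a scrambled anti-miR. All 6 arrays thus share 1 insulin-secreting rat beta-cell line, which limits them as a model of islets, and the labels give no dose and no exposure time. Every array is titled as a biological replicate, but no separate cultures are named. P-values therefore cover only the spread among these 6 arrays, and how much of it is technical is not known. The series also holds microRNA arrays of rat islets, which are not used here.

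A microRNA pairs through its seed, the bases near its 5′ end, with messenger RNAs and lowers their stability or translation. An anti-miR, a short synthetic strand complementary to a mature microRNA, binds it and blocks its action. A whole-transcript array carries short probes along each transcript, and robust multi-array averaging (RMA) combines the probes of a transcript cluster into 1 log2 value per array. Clusters built on the same probes receive the same value, as can happen for repeated sequences, so 2 identifiers need not be 2 independent measurements. The blocked strand is shown because the groups differ by it, and the capitals mark its seed, bases 2 to 8. It is the RefSeq sequence at chr10:105796345-105796367 of GRCr8, minus strand, 23 bases long.
rno-miR-338-3p: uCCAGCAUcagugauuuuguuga

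No table used here pairs a cluster with a gene, so the members are given by identifier and no function is assigned to them. The label of the set as a run along a chromosome rests on identifiers that follow each other, since coordinates of the clusters are not used here. Of the 57 odd identifiers between the ends of the lowered and the adjoining run all 57 are in the table, and there is no even one. For the same reason neither beta-cell markers nor miR-338 and its host gene could be read on these arrays. The array medians ran from 7.81 to 7.84 log2 units. Pearson's r across all clusters was 0.998 to 0.999 between anti-miR arrays, 0.998 between control arrays, and 0.997 to 0.998 between the groups, and clusters are not independent replicates.

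In the lowered run 27 of 28 clusters, and in the short run all 4, stood at least 1 log2 unit lower under the anti-miR, where 0.116% of all clusters did so. The median difference was -1.95 in the lowered run, 3.87-fold lower, and -2.03 in the short run, 4.09-fold lower, against 0.01 over all clusters of the table. In bulk RNA, fewer cells of a kind and less RNA per cell cannot be told apart. The 31 clusters were also the 31 lowest differences of the table, which follows from how the bounds were set. The adjoining run had 0 of 29 clusters past 1 log2 unit and a median difference of -0.11. Its cluster 10722475 had a control mean of 3.21. The lowest single value of the table is 2.52, so a drop of 1 unit was not measurable there.

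**Figure D1:**
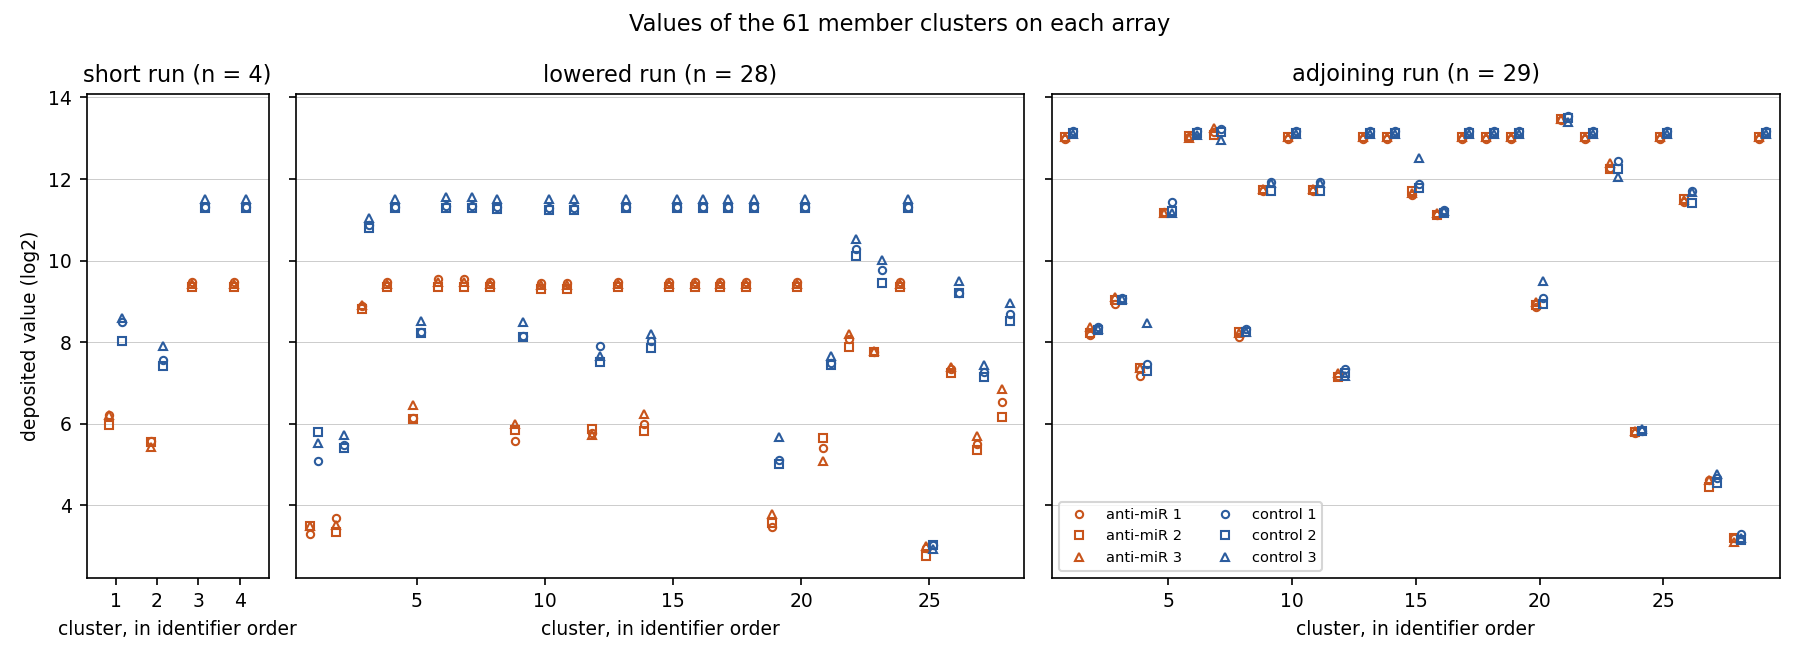
Deposited log2 value (vertical axis) of each member cluster on each array, in identifier order (horizontal axis), with the 3 anti-miR arrays in orange and the 3 control arrays in blue. In the short run and the lowered run the orange points lie near 2 units below the blue ones at every level except for cluster 10722413 of the lowered run, and in the adjoining run both colours lie close together.

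A single profile, meaning the same deposited value on all 6 arrays, recurred through both lowered stretches. It was held by 10 clusters, 2 of the short run (10707645 and 10707647) and 8 of the lowered run (10722371, 10722389, 10722393, 10722395, 10722397, 10722399, 10722403 and 10722411). Its values were 9.47, 9.35 and 9.43 in anti-miR replicates 1, 2 and 3, against 11.31, 11.28 and 11.51 in control replicates 1, 2 and 3. The highest anti-miR value lay well below the lowest control value, and the difference was -1.95 (SE 0.08, n = 3 per group). So the 4 identifiers of the short run hold only 2 profiles that the lowered run does not.

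Another 5 clusters of the lowered run followed that profile to within 0.1 log2 units on every array. Cluster 10722379 matched it exactly on 2 of 6 arrays and was never more than 0.02 away. The pair 10722383 and 10722385 shared values of 9.44, 9.30 and 9.39 under the anti-miR, against 11.28, 11.24 and 11.50 in controls (difference -1.96, SE 0.09). The pair 10722375 and 10722377 shared values of 9.54, 9.35 and 9.48 under the anti-miR, against 11.33, 11.30 and 11.56 in controls (difference -1.94, SE 0.10). Thus 15 of the 32 clusters of the short and the lowered run carried 4 profiles that are all but one, and the 32 clusters held 21 distinct profiles in all. No member shared its profile with a cluster outside the member identifiers.

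The remaining profiles belonged to 1 cluster each and, apart from that of 10722413, had differences of -2.46 to -1.66 at other levels. In the short run, cluster 10707641 had values of 6.22, 5.97 and 6.21 under the anti-miR, against 8.50, 8.04 and 8.59 in controls (difference -2.25, SE 0.19). Cluster 10707643 had values of 5.57, 5.55 and 5.43 under the anti-miR, against 7.56, 7.41 and 7.91 in controls (difference -2.11, SE 0.15). In neither did the groups overlap, and the gap between them was several times the range within a group.

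The largest difference in the lowered run was that of cluster 10722381, at 5.58, 5.85 and 5.99 under the anti-miR, against 8.16, 8.13 and 8.50 in controls. It came to -2.46 (SE 0.17), 5.49-fold lower. Next were cluster 10722407, at 8.08, 7.87 and 8.20 under the anti-miR, against 10.28, 10.11 and 10.54 in controls (difference -2.26, SE 0.16), and cluster 10722419, the last of the run, at 6.54, 6.15 and 6.85 under the anti-miR, against 8.68, 8.52 and 8.95 in controls (difference -2.20, SE 0.24). These 3 clusters lie apart in the run, with other clusters at the shared profile between them.

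At the other end, cluster 10722413 was the 1 cluster of the lowered run without a shift. It read 2.95, 2.76 and 2.99 under the anti-miR, against 3.02, 3.03 and 2.92 in controls, with overlapping groups and a difference of -0.09 (SE 0.08). Only 0.127% of the clusters of the table had a lower mean value, and the lowest single value of the table is 2.52, so a drop of 2 units was not measurable there. The smallest of the other differences was that of cluster 10722401, at 3.47, 3.55 and 3.78 under the anti-miR, against 5.11, 5.01 and 5.67 in controls (difference -1.66, SE 0.23, 3.16-fold lower). Cluster 10722417 followed, at 5.50, 5.35 and 5.70 under the anti-miR, against 7.26, 7.16 and 7.45 in controls (difference -1.77, SE 0.13). In both the groups stood apart.

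**Figure D2:**
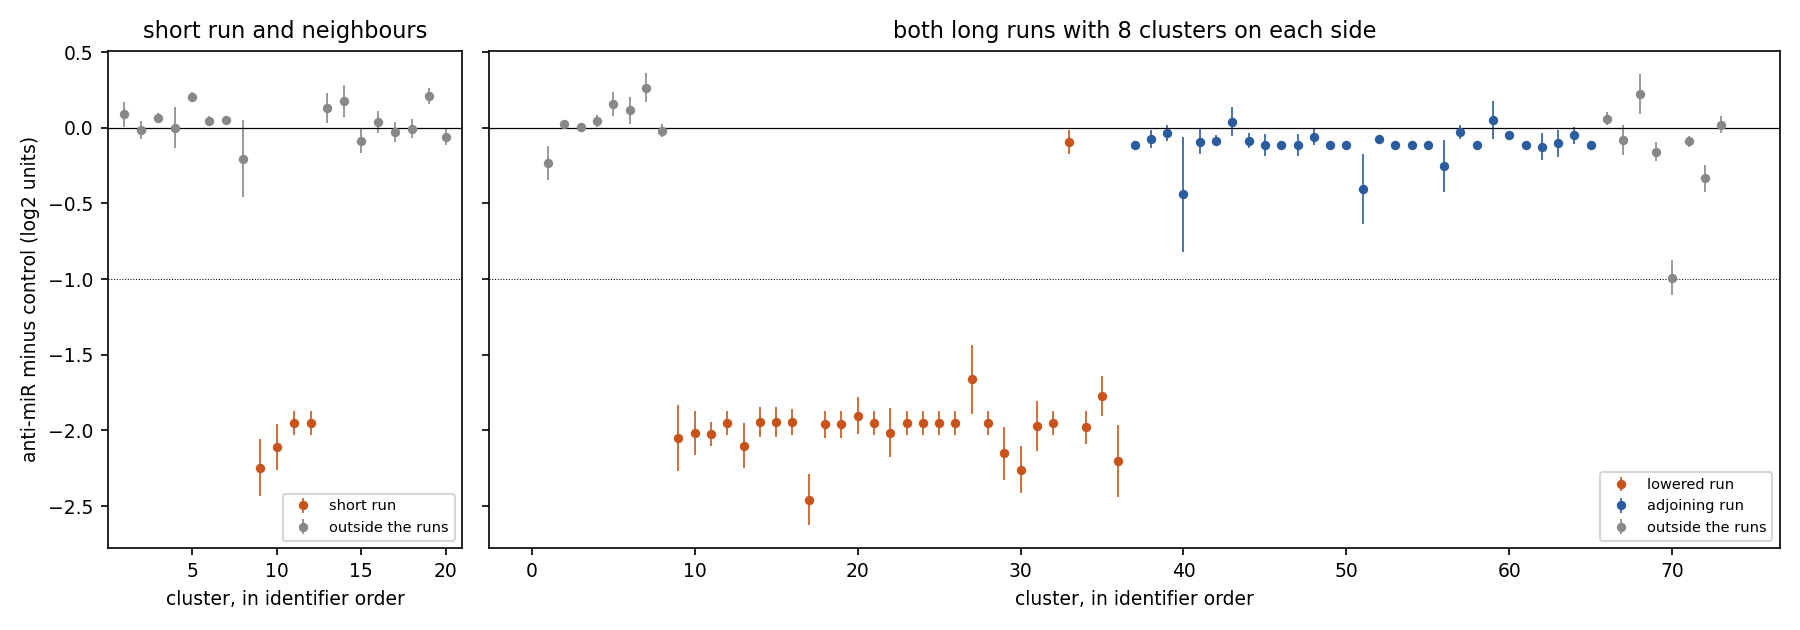
Anti-miR minus control difference in log2 units (vertical axis, bars are ± 1 SE, n = 3 arrays per group) in identifier order (horizontal axis) for the short run (left) and the lowered and adjoining runs (right), each with 8 clusters on either side in grey. The dotted line marks -1. The step between 10722419 (-2.20) and the first cluster of the adjoining run (-0.12) falls between consecutive odd identifiers. The bounds of the runs were set on this difference.

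At control means of 6 or more the size of the shift varied little with the level of the cluster. Clusters can differ in their probes, so the order of their values is no order of RNA amounts. Among distinct profiles of the short and the lowered run, the 8 with a control mean of 9 or more (19 clusters) had a median difference of -1.97, and the 9 with a control mean of 6 to 9 had one of -2.11. The 8 include the 4 profiles that are all but one. The 4 profiles with a control mean under 6, 10722413 among them, ran from -2.05 to -0.09, with a median of -1.84. Over the 31 shifted clusters the differences had a standard deviation of 0.15 around their median of -1.95, and over their 20 distinct profiles one of 0.18 around -2.01.

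**Figure D3:**
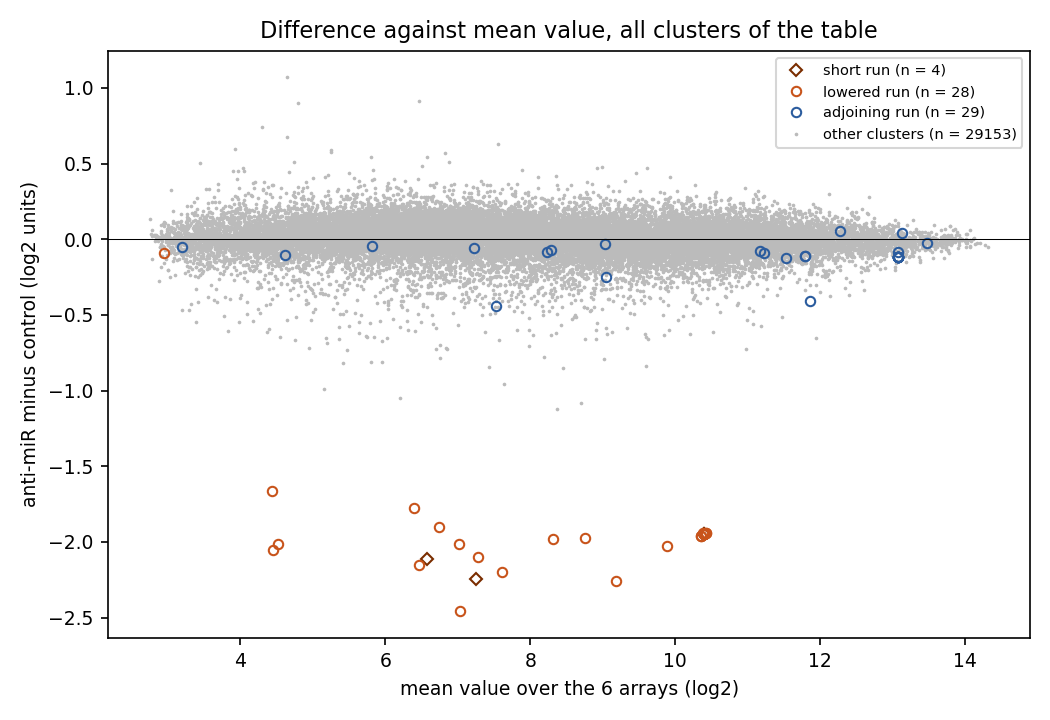
Anti-miR minus control difference (log2 units, vertical axis) against the mean value over the 6 arrays (log2, horizontal axis) for every cluster of the table. The 31 shifted members, in orange and as dark diamonds, lie between -2.46 and -1.66, and the lowest other cluster is at -1.12.

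Values of the shifted clusters were more variable between replicates than those of most clusters. The pooled within-group standard deviation of all 32 clusters of the short and the lowered run was above 0.06, the median of the table, and had a median of 0.12 and a range of 0.10 to 0.29. Their arrays deviated together. Control replicate 3 was the highest of the control arrays in 18 of the 20 shifted profiles, against 30.5% of all clusters, and control replicate 2 the lowest in 19 of 20, against 30.3% of all clusters. Anti-miR replicate 2 was the lowest of its group in 13 of 20, against 33.4% of all clusters. The adjoining run had an uneven order too, led by other arrays. There control replicate 1 was the highest control in 14 of 19 profiles, against 33.7% of all clusters. Anti-miR replicate 1 was the lowest of its group in 12 of 19, against 38.1% of all clusters. Profiles that share probes need not be independent of each other. Without control replicate 3 the median difference of the lowered run was -1.88.

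**Figure D4:**
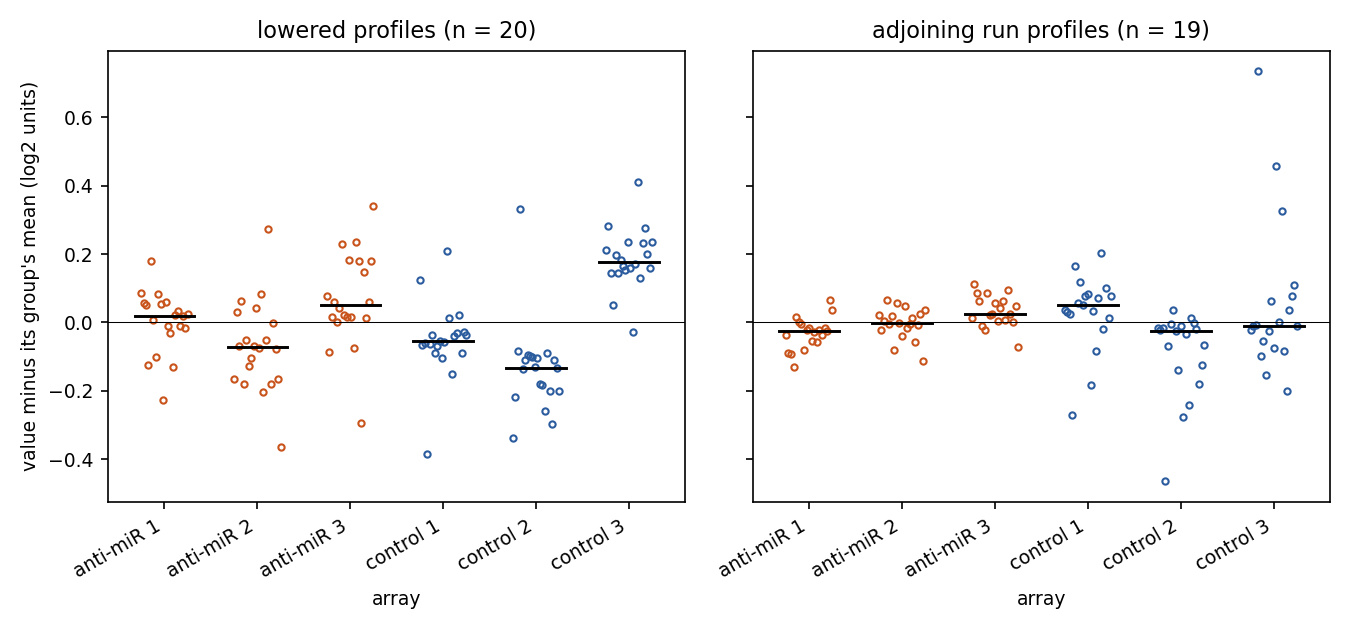
Value of each array minus the mean of its group (log2 units, vertical axis) for the 20 distinct shifted profiles (left) and the 19 distinct profiles of the adjoining run (right), with 1 point per profile and a line at the median. On the left control replicate 3 lies at a median of 0.18 and control replicate 2 at -0.13, while on the right 3 points of control replicate 3 stand far above the rest.

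The adjoining run had the same kind of repetition without the shift. Its 29 clusters held 19 distinct profiles, and 10 of them (10722421, 10722439, 10722445, 10722447, 10722453, 10722455, 10722457, 10722463, 10722469 and 10722477) shared 1 profile. Its values were 12.98, 13.04 and 13.03 under the anti-miR, against 13.17, 13.12 and 13.11 in controls. The groups did not overlap, but the difference was only -0.12 (SE 0.03), 1.08-fold lower. The pair 10722437 and 10722441 shared values of 11.71, 11.73 and 11.76 under the anti-miR, against 11.93, 11.71 and 11.91 in controls (difference -0.11, SE 0.07), where control replicate 2 lay just below every anti-miR array. The 2 long runs thus each hold many copies of 1 profile, and no profile is common to both.

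Repeated profiles weigh on any count over these clusters. In all, 26 of the 61 members (42.6%) shared their profile with another member, against 1.09% of the clusters of the table that shared one with any cluster. Only 4 profiles of the whole table are held by 10 or more clusters, among them the shared profile of the lowered stretches and that of the adjoining run. In the adjoining run all 3 anti-miR arrays lay below all 3 control arrays in 13 of 29 clusters, but in 4 of 19 distinct profiles, where 9.33% of all clusters did so. In the short and the lowered run the count was 31 of 32 clusters and 20 of 21 profiles.

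The lowest differences of the adjoining run rested in large part on control replicate 3. Cluster 10722427 read 7.17, 7.37 and 7.37 under the anti-miR, against 7.47, 7.28 and 8.48 in controls (difference -0.44, SE 0.38). Cluster 10722449 read 11.60, 11.71 and 11.66 under the anti-miR, against 11.88, 11.79 and 12.52 in controls (difference -0.41, SE 0.23). Cluster 10722459 read 8.86, 8.91 and 8.98 under the anti-miR, against 9.09, 8.93 and 9.49 in controls (difference -0.25, SE 0.17). The groups did not overlap in 10722449, but they did in 10722427 and 10722459. Without control replicate 3 the 3 differences were -0.07, -0.18 and -0.09.

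The highest differences of the adjoining run were near 0. Cluster 10722465 read 12.26, 12.24 and 12.39 under the anti-miR, against 12.45, 12.24 and 12.05 in controls (difference 0.05, SE 0.13). Cluster 10722433 read 13.15, 13.07 and 13.24 under the anti-miR, against 13.23, 13.15 and 12.96 in controls (difference 0.04, SE 0.09). Cluster 10722461 read 13.44, 13.47 and 13.47 under the anti-miR, against 13.56, 13.50 and 13.40 in controls (difference -0.03, SE 0.05). In these 3 the groups overlapped and each difference was smaller than its SE, and the sign turned when 1 array was left out, with ranges of -0.05 to 0.15, -0.04 to 0.10 and -0.07 to 0.01. Of the 29 clusters, 27 had a negative difference and 2 a positive one, and of the 19 distinct profiles 17 and 2. Over all 29214 clusters of the table, 12727 were negative and 16460 positive.

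Control means ran from 2.99 to 11.40 in the lowered run and from 3.21 to 13.49 in the adjoining run. These levels are not set against each other because their probes can differ. The median pooled within-group standard deviation was 0.12 over the clusters of the lowered run and 0.06 over those of the adjoining run. Over distinct profiles it was 0.18 in the lowered run and 0.08 in the adjoining run. This difference in spread was not tested.

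At the bounds of the short run and between the lowered and the adjoining run the change was abrupt. This follows from how the bounds were set, so the values below only describe it. The lowered run opened with cluster 10722365. It read 3.29, 3.48 and 3.48 under the anti-miR, against 5.09, 5.80 and 5.52 in controls (difference -2.05, SE 0.22). Just outside, cluster 10722363 read 3.63, 3.75 and 3.69 under the anti-miR, against 3.75, 3.69 and 3.69 in controls (difference -0.02). The lowest single value of the table is 2.52, so a drop of 2 units was not measurable in 10722363. The clusters before it, 10722359 and 10722347, had higher control means of 6.07 and 6.55 and differences of 0.27 and 0.12. After the adjoining run, clusters 10722479, 10722481 and 10722483 had differences of 0.06, -0.08 and 0.22. Around the short run, clusters 10707620, 10707626 and 10707639 before it stood at 0.05, 0.05 and -0.20, and clusters 10707649, 10707651 and 10707656 after it at 0.13, 0.18 and -0.08. None of these 12 neighbours came near the shift of the short or the lowered run. Like 10722363, cluster 10722483, with a control mean of 3.94, was too low for a drop of 2 units to be measured. The adjoining run had no such shift, so no step is read at its end.

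A cluster a few identifiers beyond the adjoining run, singled out after its values were seen, lay lower again. Cluster 10722487 read 4.62, 4.62 and 4.72 under the anti-miR, against 5.76, 5.42 and 5.75 in controls, without overlap and with a difference of -0.99 (SE 0.12). It was the lowest of the 8 clusters that follow the adjoining run, and cluster 10722499, also singled out by its value, was next at -0.33 (SE 0.09).

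Across the whole table, limma called 0.753% of clusters lower (220 of 29214, Benjamini-Hochberg adjusted p under 0.05), and the members called were 31 of 61, all of them in the short and the lowered run. Since this contrast set the bounds of the runs, nothing is read from that count. With 1 array left out, 53 to 73 clusters of the table and 28 or 29 members were called lower: 53, 58 and 73 clusters without anti-miR replicates 1, 2 and 3, and 66, 54 and 57 without control replicates 1, 2 and 3.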

How the data were processed

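The authors deposited 1 log2 value per transcript cluster and array, made by RMA with affy in R 2.9.2 per the submitters' processing notes. The sources used here give neither the genome build nor the map from probes to clusters. Members and lists were chosen with earlier results of these data known.

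Columns were matched to samples by accession. Clusters with exactly equal deposited values on all 6 arrays were counted as 1 profile. For each cluster the group means, SDs, anti-miR minus control difference and its SE were computed. The background share of calls came from limma (version 3.58.1, R 4.3.3; a 2-sided moderated test from lmFit and eBayes without a filter or a replicate block, adjusted over all 29214 clusters). The number of arrays limits the precision. Values per array are given for profiles shared by members, the short run, the 3 lowest and 3 highest differences of each long run, and differences for 3 neighbours on each side. The planned gene and marker lists were not evaluated, since 0 clusters could be paired with a gene through the reference table of GRCr8. Alternatives were other scalings, a variance trend, a level filter, 1 row per profile, a replicate block and leaving out each array.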

Additional observations from a re-analysis of the deposited data

How the results depend on the processing

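The medians of the 3 runs kept their sign and moved by less than the spread between replicates under every alternative run. The variance trend and the balanced replicate block could not move these medians, since neither changes the difference of a cluster. With 1 array left out the median difference ran from -1.99 to -1.88 in the lowered run, from -2.11 to -1.92 in the short run and from -0.12 to -0.08 in the adjoining run, and the gap between both long runs from -1.91 to -1.78. The shared profile of the adjoining run moved from -0.12 to -0.08 with quantile normalization.

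The count of members at or below -1 was 31 in every fit that kept all clusters, 20 with 1 row per distinct profile and 19 with the level filter, which both test fewer clusters. This count and the member calls were added after the data were seen.

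Over the whole table the calls depended on the fit. As reported, 220 clusters were called lower and 31 higher. A variance trend gave 418 lower and 140 higher, the level filter 608 lower and 302 higher, and quantile normalization 59 higher; the cause was not tested. Leaving out 1 array gave 53 to 73 lower and 0 to 2 higher, with fewer arrays in the fit. With the replicate number as a block limma called 54 lower and 0 higher, with 2419 higher at an unadjusted p under 0.05, against 2336 without the block. The block left every median as it was, which a balanced block does by construction. Same-numbered arrays deviated together only weakly (r of 0.03 to 0.09 across clusters). Even so, 5 of 6 arrays correlated best with their own number, so whether the numbers pair the arrays was not settled. The main fit used no pairing because the labels name none. Leaving out anti-miR replicate 2 or 3 or control replicate 2 or 3 gave 0 higher calls in limma, with 1806 to 2122 higher at an unadjusted p under 0.05.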

Other observations

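Outside the member identifiers, 3 clusters of the table had a difference of -1 or lower. Cluster 10891949 read 7.95, 7.74 and 7.73 under the anti-miR, against 8.98, 8.86 and 8.95 in controls (difference -1.12, SE 0.08). Cluster 10858655 read 8.10, 8.29 and 8.10 under the anti-miR, against 9.26, 9.30 and 9.17 in controls (difference -1.08, SE 0.07). Cluster 10700595 read 5.71, 5.98 and 5.36 under the anti-miR, against 6.99, 6.82 and 6.39 in controls (difference -1.05, SE 0.25). None of the 3 had overlapping groups, and all were singled out after their values were seen. In the other direction 1 cluster reached 1 log2 unit: cluster 10701597 read 4.76, 5.56 and 5.21 under the anti-miR, against 4.49, 3.34 and 4.49 in controls (difference 1.07, SE 0.45), where control replicate 2 lay far below the other controls.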
